A study of Mus musculus with 30 samples.

Results

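The comparison described here is the liver response to cyproterone acetate in hCAR/hPXR mice, whose own genes for the nuclear receptors CAR and PXR are humanised. It uses 6 of the 30 arrays of the series, 3 from treated and 3 from corn oil hCAR/hPXR mice, chosen by their group labels, and all 12795 genes that passed a filter on dim signals. The study measured liver RNA of adult male C57BL mice on Affymetrix arrays and asked, by its title, how mice with humanised or deleted CAR and PXR respond to 1,4-dichlorobenzene (DCB) and cyproterone acetate (CPA). The treated hCAR/hPXR mice received CPA daily by oral gavage at 160 mg/kg and carry a duration of 6 days in their labels, while their corn oil controls (0 mg/kg) carry 3 days. The protocol text in the labels gives 3 days for CPA throughout, so a longer treatment cannot be told apart from the compound itself in this comparison. Set beside it were CPA in wild type mice (160 mg/kg, labelled 6 days, against 3-day corn oil), CPA in CARko/PXRko mice, which lack both receptors (160 mg/kg and corn oil, both labelled 3 days), and DCB in hCAR/hPXR mice (600 mg/kg, 3 days), with 3 arrays in each group. The design text gives 5 mice per group, and nothing in the labels says that each array came from a different mouse, so the p-values rest on the spread among arrays, which may be technical in part.

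CAR and PXR are ligand-activated transcription factors of the liver that bind DNA with the receptor RXR and raise the transcription of genes for oxidation, conjugation and export of foreign chemicals. Cyp2b10 is the best known CAR target in mouse liver and Cyp3a11 the best known PXR target. Mouse and human forms of both receptors differ in the ligands they accept, which is the reason for humanised mice. Cyproterone acetate is a steroid used as an antiandrogen, also a progestin and a ligand of the glucocorticoid receptor, and it activates rodent PXR.

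The receptor probe sets checked the genotype labels for loss of the mouse transcripts only. Nr1i3, the mouse CAR gene, read 6.44, 6.05 and 6.42 on the log2 scale in the corn oil hCAR/hPXR arrays and 6.68, 6.74 and 6.47 in the CPA arrays. In wild type corn oil arrays Nr1i3 read 9.32, 9.37 and 10.09, and in CARko/PXRko corn oil arrays 6.51, 6.11 and 6.10. Nr1i2, the mouse PXR gene, read 4.43 to 4.92 in the 6 hCAR/hPXR arrays against 6.75 to 8.04 in wild type corn oil. The hCAR/hPXR arrays thus lay with the CARko/PXRko arrays and below wild type on these probe sets for mouse transcripts. Whether they also read the human transcripts is not given in the labels. Neither gene was called for CPA in hCAR/hPXR mice, where Nr1i3 differed by 0.32 ± 0.21 (SE, limma adjusted p = 0.501) and Nr1i2 by -0.09 ± 0.23 (adjusted p = 0.915). The 6 arrays had similar medians (5.37 to 5.41 log2 units) and each correlated with the others of its group at a mean r of 0.977 to 0.988. The defining hepatocyte markers, such as Alb and Ttr, averaged 14.14 to 14.41 in every one of the 6 arrays, and none of the 9 was called.

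CPA raised a small set of genes for steroid and drug metabolism very strongly and lowered genes of interferon response, antigen presentation and macrophages. Of the 12795 genes tested, 566 (4.42%) differed between treated and control hCAR/hPXR arrays by limma at an adjusted p under 0.05. Of these, 195 rose (1.52%) and 371 fell (2.9%). These shares are the background for every count of called list members in this comparison. The larger changes were split differently by size: 100 of the risen and 188 of the fallen genes moved by at least 1 log2 unit (a 2-fold difference), 34 and 31 by at least 2 units, and 16 and 7 by at least 3. The median difference over all tested genes was -0.02. The 3 treated arrays lay entirely above the 3 controls for 1241 genes (9.7%) and entirely below for 1666 (13%). The number of calls depended on single arrays: with CPA replicate 1 left out it was 257, with corn oil replicate 1 left out 274, and with corn oil replicate 2 left out 341.

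**Figure D1:**
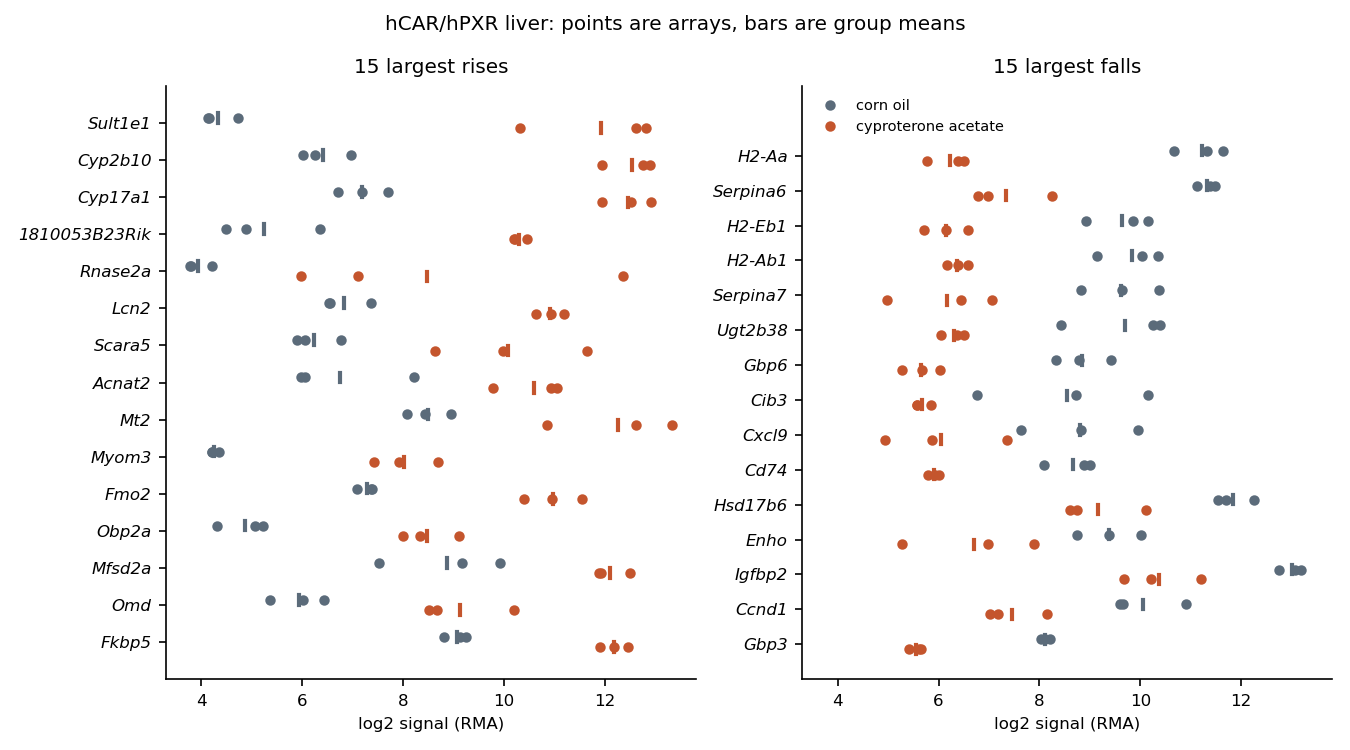
Log2 signal of the 15 genes with the largest rises (left) and the 15 with the largest falls (right) in hCAR/hPXR liver, with 1 point per array, grey for corn oil and orange for cyproterone acetate (3 arrays each), and a bar at each group mean. Treated and control arrays do not overlap for any of the 30 genes, as the choice of genes required; the treated arrays spread most for Rnase2a, from 5.97 to 12.37.

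Genes of drug oxidation were led by Cyp2b10, the CAR target that encodes a phenobarbital-inducible cytochrome P450. Cyp2b10 read 6.97, 6.01 and 6.24 in corn oil arrays and 11.95, 12.76 and 12.90 in CPA arrays. All 3 treated arrays lay far above the controls, with a difference of 6.13 ± 0.77 (SE, limma adjusted p = 2.76e-05), and 2 further Cyp2b10 probe sets rose by 7.11 and 7.13. Cyp3a11, the PXR target, was near the top of the array's range in every sample: 14.77, 14.80 and 14.82 with corn oil and 14.84, 14.87 and 14.88 with CPA. The treated arrays were higher in all 3 cases but by only 0.07 ± 0.09 (limma adjusted p = 0.794). The array's highest values were 15.21 to 15.34, so how far such a bright probe set could still rise was not tested. None of the 5 tested CYP3A and CYP2A genes was called (median 0.32), including Cyp3a25 (0.32 ± 0.12) and Cyp3a13 (0.61 ± 0.30).

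Among 10 tested CYP2B and CYP2C enzymes, 2 rose and 8 were not called, with a median of 0.50 against -0.02 over all genes. Cyp2c39, which encodes an arachidonic and retinoic acid hydroxylase, was the other riser (1.41 ± 0.31, limma adjusted p = 0.00839), and only 1 of the 10 was called without CPA replicate 3. Cyp2c55 read 8.73, 9.24 and 8.61 with corn oil and 8.36, 8.28 and 8.55 with CPA, so the treated arrays lay below all controls without a call (-0.46 ± 0.51, adjusted p = 0.746). Cyp2c29, another CAR-responsive enzyme of mouse liver, differed by 0.17 ± 0.15.

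Of 13 other genes known to respond to CAR or PXR, 4 rose and none fell (median 0.67), against 1.52% higher and 2.9% lower of all tested genes. Gadd45b, a growth arrest and DNA damage gene that partners with CAR in mouse liver, rose by 2.10 ± 0.35, Gstm3 by 2.02 ± 0.47, the sulfotransferase gene Sult1d1 by 1.93 ± 0.41 and the carboxylesterase gene Ces2a by 0.70 ± 0.20. Alas1, the rate-limiting enzyme of heme synthesis, differed by 1.04 ± 0.39 (limma adjusted p = 0.158) and the uptake transporter Slco1a4 by 0.91 ± 0.59. Epoxide hydrolase Ephx1 and the export pumps Abcc2, Abcc3 and Abcc4 differed by no more than 0.05 in either direction. With either corn oil replicate 2 or corn oil replicate 3 left out the count of 4 was 2, and Ces2a was called with CPA replicate 3 left out but not with any 1 of the other 5 arrays left out. None of 16 drug and bile acid transporters was called (median 0.01). In the heme pathway, which supplies every P450, Alad (-0.81 ± 0.16) and Fech (-0.44 ± 0.11) fell among 7 tested genes. The other 5 differences were positive and not called, and the median of the 7 was 0.23. The count of falls was 1 without corn oil replicate 1, corn oil replicate 2, CPA replicate 1 or CPA replicate 3.

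Conjugating enzymes moved in a few members each. Among 19 glutathione transferases, which attach glutathione to reactive molecules, Gstt3 (2.63 ± 0.37), Gstm2 (2.02 ± 0.26) and Gstm3 rose and none fell (median 0.18). Gstm2 read 9.52, 9.62 and 9.38 with corn oil and 11.75, 11.28 and 11.53 with CPA, a gap between the groups far wider than the spread within them. NRF2 targets, the genes of the oxidative stress response, showed 2 calls of 16 (Gstm3 and the quinone reductase Nqo1, 1.36 ± 0.36) and a median of 0.14. No NRF2 target was called without corn oil replicate 2 or corn oil replicate 3. Without CPA replicate 3 there was 1 rise, and without CPA replicate 2 there were 1 rise and 1 fall with a median of -0.04. None of 5 AHR targets was called: Cyp1a1 differed by -0.02 ± 0.74 and Cyp1a2 by -0.63 ± 0.38.

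Steroid-handling genes held the largest rise of the comparison. Sult1e1, the estrogen sulfotransferase that inactivates estrogens by sulfation, read 4.13, 4.14 and 4.72 with corn oil, at the dim end of the array, and 10.33, 12.62 and 12.82 with CPA. Every treated array was above every control by more than 5 log2 units, and the difference was 7.59 ± 0.69 (limma adjusted p = 4.31e-07). Cyp17a1, the 17α-hydroxylase of androgen synthesis, which is female-biased in mouse liver, read 7.69, 6.70 and 7.18 with corn oil and 11.95, 12.92 and 12.52 with CPA. Its groups did not overlap either, with a rise of 5.28 ± 0.69 (adjusted p = 3.97e-05). Hsd17b6, a retinol and hydroxysteroid dehydrogenase, fell by 2.68 ± 0.60 (limma adjusted p = 0.00958), from 12.26, 11.70 and 11.53 to 8.74, 10.12 and 8.61. The call was lost when CPA replicate 1, CPA replicate 3 or corn oil replicate 1 was left out, and the highest adjusted p was 0.0608. A dimmer second probe set of Hsd17b6 (means 4.45 and 4.63) differed by 0.17. The other 14 of 16 steroid-metabolizing enzymes were not called (median of the 16, -0.29).

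Of 9 tested genes that are higher in female than male mouse liver, 4 rose: Cyp17a1, the flavin monooxygenase gene Fmo2 (3.69 ± 0.45), the sulfotransferase gene Sult3a1 (2.37 ± 0.62) and the oxysterol hydroxylase gene Cyp39a1 (2.10 ± 0.46). None was called as lower, although 3 differences were negative, the lowest at -1.98, and the median was 0.47. The rises numbered only 2 or 3 with any 1 of the 6 arrays left out. Without corn oil replicate 2 the list had 2 rises and 1 fall. A fall was also called without CPA replicate 2, without corn oil replicate 3, with array weights, with probe sets averaged and without the arrays of other groups that hold muscle transcripts. Of 15 male-biased genes, Ugt2b38 (-3.39 ± 0.60) and Cyp2u1 (-1.18 ± 0.27) fell and none rose (median -0.44), with 1 call without corn oil replicate 2, CPA replicate 1 or CPA replicate 3. Ugt2b38, a glucuronosyltransferase gene, read 8.43, 10.40 and 10.26 with corn oil and 6.06, 6.36 and 6.50 with CPA. Reference male-biased genes scattered too widely to be called: Hsd3b5 differed by -2.06 ± 1.56, Elovl3 by -2.20 ± 0.70 (limma adjusted p = 0.0804) and Slco1a1 by -1.35 ± 0.81. In the growth hormone and IGF axis, whose hormone sets much of the sex bias of the liver, 1 of 14 genes was called, Igfbp2, and 13 of the 14 differences were negative (median -0.33).

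Of 11 plasma carriers of hormones and vitamins, 3 fell (median -0.26). Serpina6, which encodes corticosteroid-binding globulin, read 11.49, 11.12 and 11.37 with corn oil and 6.98, 8.24 and 6.77 with CPA, a difference of -4.00 ± 0.42 (limma adjusted p = 2.39e-06). Serpina7, thyroxine-binding globulin, fell by 3.45 ± 0.67, from 10.37, 9.64 and 8.82 to 6.44, 4.98 and 7.05. Igfbp2, an IGF-binding protein, fell by 2.64 ± 0.36, from 13.06, 12.75 and 13.19 to 10.21, 11.21 and 9.67. For all 3 genes no treated array reached a control array. The other 8 carriers were not called, among them Ttr (-0.02 ± 0.07), Rbp4 (0.03 ± 0.09) and Shbg (-0.01 ± 0.19). This list of carriers, the metallothionein list and both MHC lists were drawn up after values of these arrays had been seen. The other lists were also chosen with earlier results of these data known, so list counts are no independent support.

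Genes known to respond to glucocorticoids rose in 6 of 17 tested cases, against 1.52% of all tested genes. None fell, and the median was 1.06 against -0.02 over all genes. Fkbp5, a chaperone of the glucocorticoid receptor and a standard readout of its activity, read 8.82, 9.13 and 9.26 with corn oil and 11.92, 12.19 and 12.46 with CPA. The groups were tight and far apart (3.12 ± 0.29, limma adjusted p = 5.05e-07). Lpin1, a phosphatidate phosphatase, rose by 3.01 ± 0.37, the zinc finger gene Zbtb16 by 2.66 ± 0.34 and the MAP kinase phosphatase gene Dusp1 by 1.79 ± 0.41. Lcn2, which encodes an iron-siderophore-binding acute phase protein, read 6.56, 6.53 and 7.37 with corn oil and 10.94, 10.63 and 11.19 with CPA (4.10 ± 0.78). Mt2, a metal-binding metallothionein, rose by 3.78 ± 0.79, with treated arrays between 10.85 and 13.32. Its partner Mt1 differed by 2.65 ± 0.80 (limma adjusted p = 0.0614), and Cdkn1a by 1.90 ± 0.59 (adjusted p = 0.0674). Tat differed by 0.89 ± 0.37 and Pck1 by -0.38 ± 0.61, and neither was called. Leaving out any 1 of the 6 arrays left 5 or 6 calls. The acute phase list, which shares Lcn2, had 2 risers of 22 (Lcn2 and Orm3, 2.42 ± 0.51) and a median of -0.01, with the classical reactants Saa1 (-1.32 ± 1.10), Saa2 (-1.19 ± 1.06) and Hp (0.24 ± 0.09) not called.

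**Figure D2:**
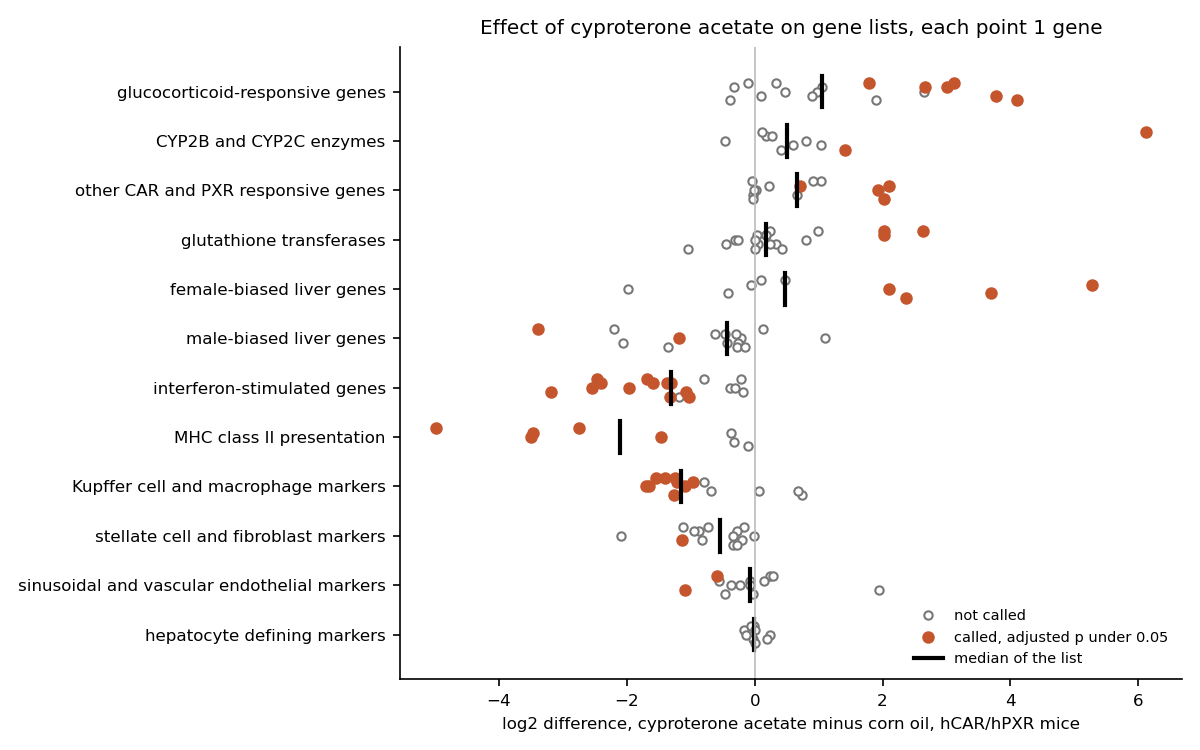
Log2 difference between cyproterone acetate and corn oil in hCAR/hPXR liver for the tested genes of 12 lists, with 1 point per gene, filled orange where limma's adjusted p was under 0.05 and open otherwise, and a black bar at each list's median. The interferon-stimulated list has a median of -1.31 and the glucocorticoid-responsive list 1.06, and the hepatocyte markers -0.01.

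Energy metabolism changed in single genes. In glucose production and use, 4 of 13 genes rose (median 0.52), against 1.52% of all tested genes. The 4 were Pklr, the liver pyruvate kinase (2.04 ± 0.59), Slc37a4, the glucose-6-phosphate transporter (1.19 ± 0.25), the transcription factor gene Foxo1 (0.87 ± 0.23) and Pgk1 (0.52 ± 0.10). That count was 2 without CPA replicate 1 and 2 without any 1 of the 3 corn oil arrays. None of 19 genes of fatty acid and triglyceride synthesis was called, although 16 of the 19 differences were positive (median 0.41), including Pnpla3 (2.26 ± 0.73, limma adjusted p = 0.0864), Fasn (1.73 ± 0.96) and Acacb (1.69 ± 0.64). In this list 4 rises were called with array weights and 3 with only the groups compared. There was 1 without CPA replicate 3, and 1 without the arrays that hold muscle transcripts. Cholesterol synthesis had no call among 20 genes (median 0.11). Among 20 PPARα targets, the genes of fat oxidation, Bdh1, the ketone body dehydrogenase, fell by 2.53 ± 0.26 (limma adjusted p = 1.77e-06), from 11.74, 11.50 and 11.06 to 8.88, 8.34 and 9.49, and the other 19 were not called. In bile acid synthesis Cyp39a1 rose and the racemase gene Amacr fell (-0.71 ± 0.15) among 14, and Cyp7a1, the rate-limiting enzyme, differed by 0.97 ± 0.67. The Cyp39a1 call was absent without CPA replicate 2 or corn oil replicate 2.

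Growth and stress lists moved little. Of 26 genes of the cell cycle and DNA replication, Rrm2, a ribonucleotide reductase subunit, rose by 2.40 ± 0.55, Ccnd1 fell by 2.61 ± 0.67 and Mki67 fell by 1.19 ± 0.33, while 23 of the 26 differences were negative (median -0.35). Ccnd1, which encodes cyclin D1, read 10.91, 9.59 and 9.66 with corn oil and 7.18, 8.14 and 7.02 with CPA, and its limma adjusted p of 0.0249 was as high as 0.152 with an array left out. Without CPA replicate 1, and without corn oil replicate 1, no gene of the list was called as lower, 1 was without CPA replicate 2, CPA replicate 3 or corn oil replicate 2, and Rrm2 was not called without CPA replicate 3. None of 27 proteasome subunits was called (median 0.23), none of 11 heat shock chaperones (median -0.14) and none of 7 oncofetal genes (median -0.15). In the ER stress and ATF4 list, Ddit4, an inhibitor of mTORC1 that glucocorticoids also induce, was the 1 riser of 21, at 6.05, 5.59 and 5.81 with corn oil and 8.26, 8.77 and 9.01 with CPA (2.86 ± 0.25, adjusted p = 2.71e-07). The median of that list was -0.16. Complement and coagulation factors had 5 falls of 28 (median -0.24), led by C8a (-1.38 ± 0.22), against 2.9% of all tested genes. Only 1 of these 5 falls was called without CPA replicate 1, CPA replicate 3 or corn oil replicate 1, and 2 were when corn oil replicate 2 or corn oil replicate 3 was omitted.

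Interferon-stimulated genes fell in 12 of 18 tested cases, against 2.9% of all tested genes. Their median was -1.31, and all 18 differences were negative. They encode antiviral effectors and their regulators. Usp18, a negative regulator of interferon signalling that interferon induces, read 8.50, 8.77 and 8.56 with corn oil and 5.61, 6.15 and 6.68 with CPA (-2.46 ± 0.29, limma adjusted p = 1.36e-05). The genes for guanylate-binding proteins Gbp6 (-3.19 ± 0.55), Gbp3 (-2.55 ± 0.40) and Gbp2 (-2.41 ± 0.46) also fell. Gbp3 read 8.10, 8.20 and 8.03 with corn oil against 5.66, 5.41 and 5.61 with CPA, with a gap of more than 2 units and little spread in either group. The RNA-binding effectors Ifit3 (-1.96 ± 0.31), Ifit1 (-1.69 ± 0.30) and Ifit2 (-1.59 ± 0.22) fell together with the transcription factor genes Irf7 (-1.07 ± 0.24) and Irf1 (-1.03 ± 0.17). Oas1a, Rsad2 and Ifi47 completed the 12, with differences of -1.31, -1.32 and -1.37. Leaving out any 1 of the 6 arrays left 10 to 12 calls. The chemokine gene Cxcl9, an interferon gamma target outside the list, fell by 2.75 ± 0.64, though its call was absent without CPA replicate 1 and without corn oil replicate 1 (adjusted p up to 0.111).

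Genes of antigen presentation by MHC class II were among the largest falls. H2-Aa, the class II alpha chain, read 11.64, 11.32 and 10.67 with corn oil and 5.77, 6.51 and 6.39 with CPA. No treated array came within 4 log2 units of a control, and the difference was -4.99 ± 0.47 (limma adjusted p = 5.6e-07). The other 3 H2-Aa probe sets differed by -3.19, -2.56 and -2.82, and with probe sets averaged the difference was -3.39. H2-Eb1 fell by 3.50 ± 0.48, H2-Ab1 by 3.47 ± 0.51. Cd74, the invariant chain that guides class II molecules, differed by -2.74 ± 0.32 (adjusted p = 1.2e-05). Ctss, the protease that trims the invariant chain, fell by 1.47 ± 0.25. These were 5 of 8 tested class II genes, against 2.9% of all tested genes called lower. The median of the 8 was -2.11, and leaving out any 1 of the 6 arrays also left 5 calls. Ciita, the master regulator of class II transcription, was not called (-0.37 ± 0.20). In the class I and immunoproteasome list Psmb10 (-1.01 ± 0.23) and Psmb8 (-1.01 ± 0.25) fell among 11, all of whose differences were negative (median -0.54). Neither fall was called without CPA replicate 1 or corn oil replicate 1, and 1 was called without CPA replicate 2, corn oil replicate 2 or corn oil replicate 3.

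The sequence before the transcription starts of both groups of genes was searched for the elements known from their promoters. The interferon-stimulated response element was searched as GAAA, any 2 bases and GAAA, and the Y box of class II promoters as CTGATTGG, on both strands of the 250 bases before each start in RefSeq (GRCm38.p6). The response element occurred in 2.98% of 32851 promoters, in 3.07% of the 10290 tested genes with a promoter entry, and in 9 of the 13 tested interferon-stimulated genes with one (69.2%). Of those 13 genes 10 fell, and 6 of the 10 hold it (60%), as do the 3 that were not called. The 6 are Ifit1, Ifit3, Oas1a, Rsad2, Gbp2 and Gbp3. The Y box occurred in 3.83% of all promoters, in 5.84% of the tested genes with an entry and in 2 of the 5 tested class II genes with one (40%), H2-Aa and H2-Eb1, which are among the 3 of those 5 that fell. A stretch around the matches is given for 6 of these 8 genes, read 5′ to 3′ on the gene's strand, to show where the elements lie, with the match in capitals. In Ifit1, Ifit3, Gbp2 and Gbp3 the element lies on the opposite strand and therefore reads TTTC, any 2 bases and TTTC, and the matches of Gbp3 overlap. A match describes the letters and shows no binding.
H2-Aa, chr17:34287832-34287909, minus strand: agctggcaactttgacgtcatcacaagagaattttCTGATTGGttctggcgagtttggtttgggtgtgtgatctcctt
H2-Eb1, chr17:34305770-34305847, plus strand: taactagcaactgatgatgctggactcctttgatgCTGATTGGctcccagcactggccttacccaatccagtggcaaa
Ifit1, chr19:34640750-34640848, plus strand: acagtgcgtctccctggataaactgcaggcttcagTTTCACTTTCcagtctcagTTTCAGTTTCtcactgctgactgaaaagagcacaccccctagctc
Ifit3, chr19:34583338-34583451, plus strand: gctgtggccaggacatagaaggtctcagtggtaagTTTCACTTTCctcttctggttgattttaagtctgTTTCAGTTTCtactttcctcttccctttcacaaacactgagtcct
Gbp2, chr3:142620569-142620648, plus strand: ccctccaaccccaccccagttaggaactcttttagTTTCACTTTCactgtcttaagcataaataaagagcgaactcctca
Gbp3, chr3:142559964-142560043, plus strand: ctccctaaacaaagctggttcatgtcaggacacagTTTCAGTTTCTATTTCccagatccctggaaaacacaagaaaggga
The first base of the Y box lies 51 bases before the start in H2-Aa and 62 in H2-Eb1. The response elements begin 104 and 85 bases before the start in Ifit1, 156 and 122 in Ifit3, 59 in Gbp2, and 45 and 39 in Gbp3. Beside these letters, Ifit3 read 7.63, 7.81 and 8.06 with corn oil and 5.53, 5.48 and 6.61 with CPA, and H2-Eb1 read 10.16, 9.85 and 8.93 against 5.71, 6.14 and 6.58. In both genes the groups did not overlap.

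Markers of immune cells fell alongside. Of 14 markers of Kupffer cells, the resident macrophages of the liver, 9 fell (median -1.15), against 2.9% of all tested genes. The 9 were Csf1r, the receptor for their growth factor (-1.69 ± 0.27), Cd5l (-1.65 ± 0.30), Adgre1, which encodes F4/80 (-1.54 ± 0.20), Timd4 (-1.40 ± 0.26), C1qa (-1.27 ± 0.24), C1qb (-1.24 ± 0.27), C1qc (-1.21 ± 0.27), Folr2 (-1.09 ± 0.23) and Clec4f (-0.97 ± 0.21). The mean over the 14 markers was 9.34, 9.17 and 9.26 with corn oil and 7.95, 8.89 and 8.34 with CPA. CPA replicate 1 was lowest and replicate 2 nearest to the controls, and the groups did not overlap. Leaving out 1 of the 6 arrays left 6 to 10 calls. Marco (0.74 ± 0.55) and Cd163 (0.68 ± 0.32) were not called and differed in the other direction. In 12 lymphocyte and antigen presentation markers, 7 fell: the 4 class II genes above, the common leukocyte antigen gene Ptprc (-2.46 ± 0.29) and the B cell genes Cd79b (-1.28 ± 0.19) and Ms4a1 (-0.89 ± 0.24). The T cell genes Cd3d (-0.13 ± 0.20), Cd3e (-0.03 ± 0.15), Cd8a (-0.04 ± 0.18) and Cd4 (-0.21 ± 0.09) were not called. Cd79a, another B cell gene, Cd3g and Nkg7 did not pass the filter on dim signals. Their means were 4.77, 4.49 and 5.30 with corn oil and 4.78, 4.18 and 4.78 with CPA. The mean over the 15 markers with a probe set, tested or not, was 7.21, 6.98 and 6.79 with corn oil and 5.50, 5.59 and 5.64 with CPA. In bulk liver, fewer cells of a type and less RNA per cell cannot be told apart. What part the fall of these markers has in the fall of the interferon and class II genes was not tested.

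Other cell types changed less. Of 14 stellate cell and fibroblast markers Colec11 alone fell (-1.13 ± 0.25), although all 14 differences were negative (median -0.54). Their mean was 8.49 to 9.33 with corn oil and 8.13 to 8.54 with CPA, so the groups overlapped, and no marker was called without CPA replicate 1 or corn oil replicate 1, while 3 were called without corn oil replicate 3. Among 13 endothelial markers Fcgr2b (-1.09 ± 0.25) and Kdr (-0.59 ± 0.15) fell (median -0.08), with no fall and 1 rise called when corn oil replicate 1 was omitted, and 1 fall when corn oil replicate 2, CPA replicate 1 or CPA replicate 3 was. No call was made among 4 cholangiocyte, 2 erythroid, 16 skeletal muscle or 3 adipose markers. The mean over the 17 muscle markers with a probe set was 5.27 to 5.43 in all 6 arrays.

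The remaining genes of the 15 largest rises and falls had varied roles. Among the rises, 1810053B23Rik (5.05 ± 0.72), the scavenger receptor gene Scara5 (3.85 ± 0.62), the acyltransferase gene Acnat2 (3.84 ± 0.67), the myomesin gene Myom3 (3.75 ± 0.70), the odorant-binding protein gene Obp2a (3.62 ± 0.59), the lysolipid transporter gene Mfsd2a (3.24 ± 0.72) and the proteoglycan gene Omd (3.19 ± 0.52) were called. Myom3 was dim with corn oil, at 4.21, 4.35 and 4.21, and read 7.42, 7.92 and 8.68 with CPA. Rnase2a, a ribonuclease gene of the eosinophil family, had a mean rise of 4.56 ± 1.24 that rested on CPA replicate 3, at 12.37 against 7.11 and 5.97 in the other treated arrays and 3.78 to 4.21 in the controls. Without that array the difference was 2.61 (limma adjusted p = 0.228), and the call was also lost without any 1 of the corn oil arrays. Mfsd2a was not called without CPA replicate 1 or corn oil replicate 3. Among the falls, Enho, which encodes the peptide adropin, dropped by 2.67 ± 0.47, and Cib3 dropped by 2.88 ± 0.79 from corn oil values spread between 6.75 and 10.16. The Cib3 call was absent in 5 of the 6 fits that left out an array, all but the one without corn oil replicate 3. Of the 30 largest changes, 24 were called with each of the 6 arrays left out in turn and none changed direction.

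The same compound in wild type mice allowed a test of whether the response depended on the genotype. There 143 genes were called (1.12%), 62 higher (0.485%) and 81 lower (0.633%). That count was 774 when only these wild type groups entered the fit, and 38, 81 and 69 with wild type CPA replicates 1, 2 and 3 left out in turn and 41 and 44 with wild type corn oil replicates 1 and 2 left out. The effects were set against each other in 1 limma model, and 8 genes (0.0625%) had a different response in hCAR/hPXR than in wild type mice, 4 higher (0.0313%) and 4 lower (0.0313%). At an unadjusted p under 0.05 there were 628. Nebl, a nebulin-family actin-binding protein gene, had the lowest adjusted p. It read 4.54, 4.63 and 4.68 in wild type corn oil arrays and 8.44, 7.42 and 7.79 with CPA, whereas hCAR/hPXR arrays stayed at 4.67, 5.01 and 4.31 with corn oil and 4.60, 4.99 and 5.01 with CPA. The difference between the responses was -3.06 ± 0.31 (limma adjusted p = 8.47e-06), and the CARko/PXRko arrays read 4.33 to 4.80 in both groups. Of these arrays, only those of wild type mice with CPA lay above the array medians of 5.36 to 5.44. Among these groups, Nebl thus met the filter on dim signals only through the group where it was high. For the other Nebl probe sets, both dimmer, the difference between responses was 0.17 and -0.39. Cyp2c55 rose in wild type mice too, from 7.86, 7.81 and 7.85 to 11.88, 11.81 and 11.82, with a difference between responses of -4.46 ± 0.72 (adjusted p = 0.00872). In CARko/PXRko mice Cyp2c55 fell, from 9.94, 10.02 and 10.11 to 7.79, 8.66 and 7.37. Nebl was the only one of the 8 still called without wild type CPA replicate 3. The count was 4 or 5 without hCAR/hPXR CPA replicate 1 or 3, hCAR/hPXR corn oil replicate 1 or 3, wild type CPA replicate 1 or 2, or wild type corn oil replicate 1 or 2.

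**Figure D3:**
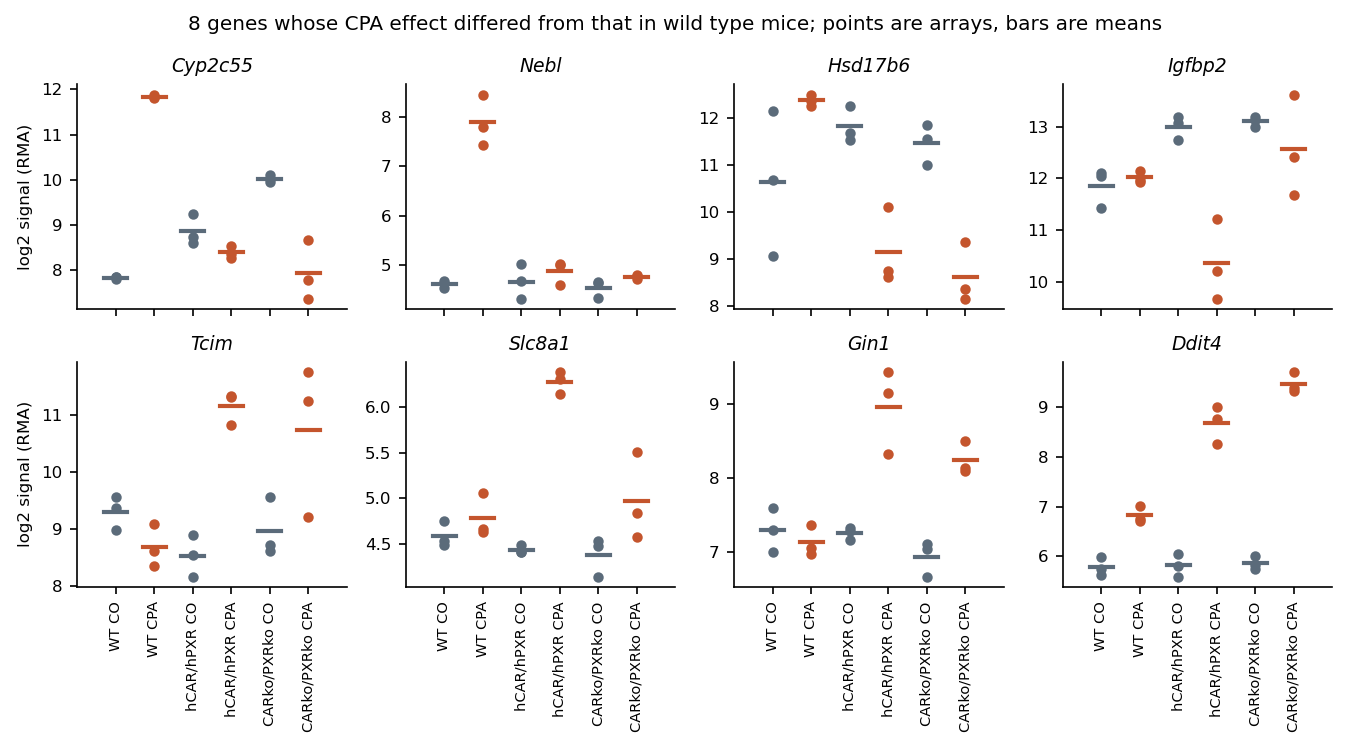
Log2 signal of the 8 genes whose response to cyproterone acetate (CPA) differed between hCAR/hPXR and wild type (WT) mice, in corn oil (CO, grey) and CPA (orange) arrays of 3 genotypes, with 1 point per array (3 per group) and a bar at each mean. Nebl and Cyp2c55 are higher with CPA in the wild type arrays and in no other genotype shown, and Igfbp2 is lowest in hCAR/hPXR, where CPA arrays read 9.67 to 11.21 against 12.75 to 13.19 in controls.

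Hsd17b6 and Igfbp2 fell in hCAR/hPXR mice and were not called in wild type mice, where they differed by 1.75 ± 0.60 and 0.16 ± 0.36. The difference between the responses was -4.43 ± 0.85 for Hsd17b6 (limma adjusted p = 0.0468), where wild type corn oil arrays scattered from 9.06 to 12.17, and -2.80 ± 0.51 for Igfbp2 (adjusted p = 0.0255). Tcim, a regulator of Wnt signalling, rose from 8.16, 8.89 and 8.53 to 11.33, 10.81 and 11.31 in hCAR/hPXR mice and differed by -0.62 ± 0.42 in wild type, a difference between responses of 3.25 ± 0.59. Ddit4 rose in both, by 2.86 in hCAR/hPXR mice against 1.04 in wild type, and the gap of 1.82 ± 0.35 had an adjusted p of 0.0488. That call was lost in 18 of 23 alternatives, among them 11 of the 12 fits that left out an array. The Hsd17b6 call was lost in 13 of 23, Tcim's in 9 and Igfbp2's in 8. Slc8a1, the sodium-calcium exchanger gene, read 4.49, 4.41 and 4.41 with corn oil and 6.38, 6.14 and 6.31 with CPA in hCAR/hPXR mice, and its response differed from that in wild type by 1.65 ± 0.26. The other 3, dimmer Slc8a1 probe sets differed by -0.09 to 0.10 with CPA in hCAR/hPXR mice. Their differences between responses were -0.05, -0.24 and -0.09. Gin1 rose by 1.71 ± 0.22 in hCAR/hPXR mice, and its response differed from that in wild type by 1.87 ± 0.31. Zbtb16 rose by 2.66 in hCAR/hPXR and differed by 0.30 in wild type mice, but that gap was not called (2.36 ± 0.48, limma adjusted p = 0.0572). The glucocorticoid list had a median of 0.41 with 2 of 17 risers in wild type mice, beside 1.06 and 6 in hCAR/hPXR mice, and the difference between the lists was not tested.

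No gene's response differed by limma between hCAR/hPXR and CARko/PXRko mice, where 702 genes were called (5.49%), 279 higher (2.18%) and 423 lower (3.31%). The lowest adjusted p was 0.095, 839 genes had an unadjusted p under 0.05, and limma with array weights called 172. Corn oil replicate 2 of the CARko/PXRko mice carried skeletal muscle transcripts, 7.48 log2 units above wild type controls at the marker median; without the 4 arrays of the series that do, 584 genes were called in CARko/PXRko mice and 1 differed from hCAR/hPXR mice. The 702 calls were 282, 464 and 368 without corn oil replicates 1, 2 and 3 and 429 without CPA replicate 1 of that genotype. A shorter labelled treatment of the CARko/PXRko mice cannot be told apart from their genotype here. Cyp2b10 rose in mice lacking both receptors too, from 5.28, 7.73 and 6.37 to 10.30, 11.22 and 8.38 (3.51 ± 0.77, limma adjusted p = 0.00812), and its rise was 2.62 larger in hCAR/hPXR mice (adjusted p = 0.742). Sult1e1 rose by 8.13 ± 0.69 and Cyp17a1 by 4.97 ± 0.69 in CARko/PXRko mice. Fkbp5 rose by 3.13 ± 0.29 there, beside 3.12 in hCAR/hPXR mice and 2.04 in wild type mice. The glucocorticoid list had 8 of 17 risers in CARko/PXRko mice with a median of 1.44. H2-Aa was lower in each, at -4.40 ± 0.47 in CARko/PXRko and -2.41 ± 0.47 in wild type mice. Of the 18 interferon-stimulated genes, 8 fell in CARko/PXRko (median -1.06) and 5 in wild type mice (median -0.81), and of the 14 Kupffer cell markers 1 (median -0.18) and 3 (median -0.75). How these lists differ between genotypes was not tested. Gstm2 differed by 0.50 ± 0.26 in CARko/PXRko mice and rose by 2.09 ± 0.26 in wild type mice, beside 2.02 in hCAR/hPXR mice.

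Calls in the other genotypes, which share no array with the hCAR/hPXR comparison, overlapped in part. Of the 195 risen genes, 96 were also called higher in CARko/PXRko mice (49.2% of the hCAR/hPXR list and 34.4% of the CARko/PXRko list) and 36 in wild type mice (18.5% and 58.1%). Of the 371 fallen genes, 144 were called lower in CARko/PXRko mice (38.8% and 34%) and 66 in wild type mice (17.8% and 81.5%). All 3 genotypes shared 29 risen and 48 fallen genes. Neither other genotype called 92 of the risen genes (47.2%) and 208 of the fallen (56.1%). Of all 12795 tested genes, the CARko/PXRko comparison called 2.18% higher and 3.31% lower, and the wild type comparison 0.485% and 0.633%. Each comparison thus called a larger share of the hCAR/hPXR lists than of all genes. The comparisons share 1 estimate of each gene's spread, so their calls are not independent even without a shared array. A gene left uncalled there need not respond differently. Gng13, a G protein gamma subunit gene, was the single gene called in opposite directions, lower in hCAR/hPXR and higher in CARko/PXRko mice. These shares depend on the samples fitted, since with only its own groups the wild type comparison called 774 genes and the CARko/PXRko comparison 136. The risen genes had median differences of 1.03 in hCAR/hPXR, 0.73 in CARko/PXRko and 0.42 in wild type mice, and the fallen genes -1.01, -0.60 and -0.59. The hCAR/hPXR medians are of genes picked by those same values.

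**Figure D4:**
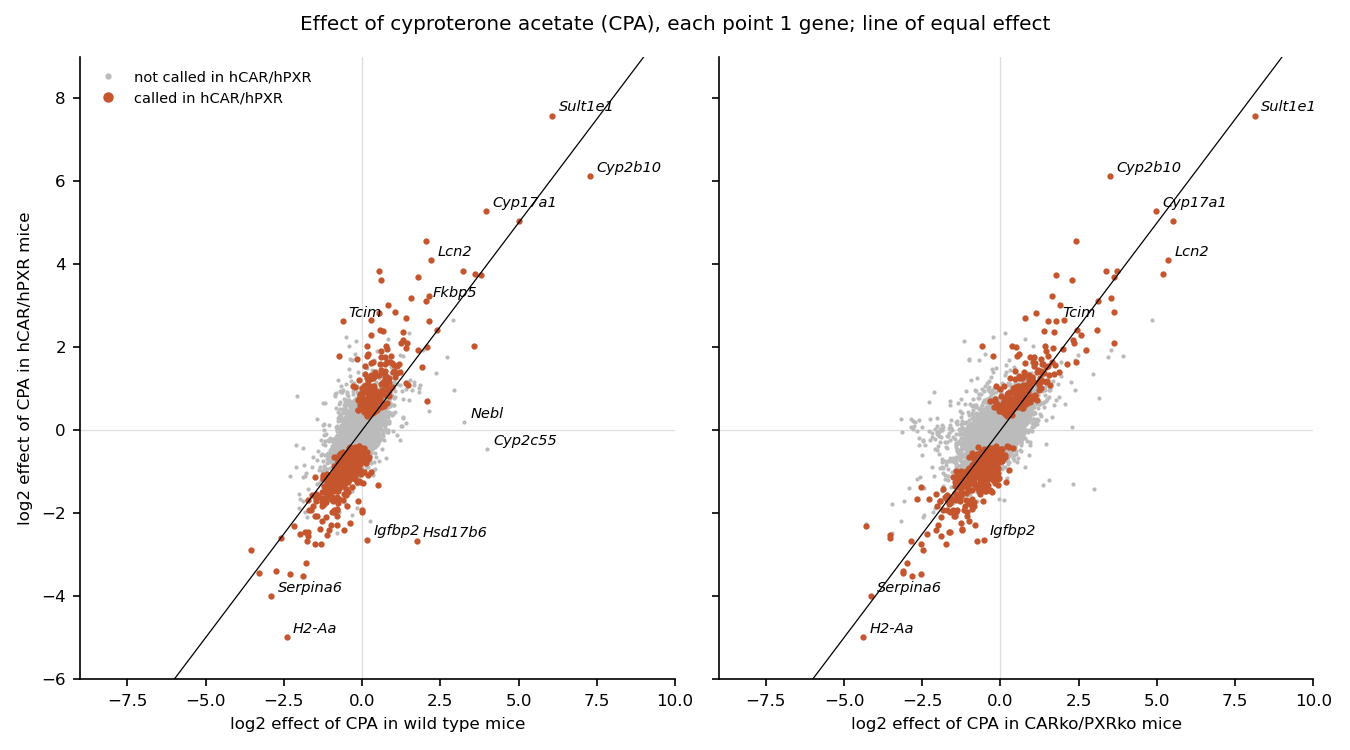
Log2 effect of cyproterone acetate (CPA) in hCAR/hPXR mice (vertical) against that in wild type (left) and CARko/PXRko mice (right), with 1 point per tested gene, orange where called in hCAR/hPXR, and a line of equal effect. Cyp2b10 lies at 6.13 for hCAR/hPXR, 7.28 for wild type and 3.51 for CARko/PXRko mice, and Cyp2c55 at -0.46 and 4.00 on the left.

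DCB, a chlorinated benzene, was given to mice of the same genotype, and its effect is measured against the same 3 corn oil arrays as that of CPA. In all, DCB called 978 genes (7.64%), 421 higher (3.29%) and 557 lower (4.35%). Cyp2b10 read 12.87, 12.65 and 12.29 with DCB, beside 11.95, 12.76 and 12.90 with CPA, and the compounds differed by -0.07 (limma adjusted p = 0.969). Cyp2c55 read 12.57, 12.73 and 10.88 with DCB, above all CPA arrays (CPA minus DCB -3.66, adjusted p = 9.3e-05). Over all genes, CPA and DCB arrays differed at 1191 (9.31%), 671 higher (5.24%) and 520 lower (4.06%) with CPA, and this count was 640 without CPA replicate 1, 768 without CPA replicate 2 and 65 when only these groups entered the fit. Quantile normalization applied again turned that split from 56.3% to 41.9% higher. Doses and labelled durations differ between the compounds. Sult1e1 (CPA minus DCB 6.03), Lpin1 (3.23), Abcd4, a gene of the ABC transporter family (1.92), Amy1 (1.82) and Slc8a1 (1.60) were the clearest genes higher with CPA. Sult1e1 read 4.48, 4.82 and 8.38 with DCB, below the CPA arrays throughout. The clearest genes lower with CPA included the carbonyl reductase gene Cbr3 (-4.97), Amn (-2.90), the sulfiredoxin gene Srxn1 (-2.54), A2ml1 (-2.34) and Ugdh (-1.58). With DCB, 4 of the 18 interferon-stimulated genes, 5 of the 8 class II genes and 7 of the 14 Kupffer cell markers fell, against the same controls. Of the 17 glucocorticoid-responsive genes, 7 were higher with CPA than with DCB and none lower. Of the 16 NRF2 targets, 10 were lower with CPA than with DCB, and so were 17 of the 27 proteasome subunits.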

How the data were processed

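Liver RNA was hybridised to 30 Affymetrix mouse arrays, 3 in each of 10 groups. The deposited values are log2 signals per probe set, made by the authors with RMA per the submitters' processing notes; its version is not given in the sources used here, and the number of arrays limits the precision. RMA equalises arrays, so a shift of all genes together would not be seen. Of 45037 probe sets, 34945 carry a single gene in the platform annotation, 932 several and 9160 none; 34741 of the single-gene identifiers occur in the RefSeq table (GRCm38.p6). Each of 18193 genes was read from its single-gene probe set with the highest mean over the 30 arrays, and 12795 were tested, those above the array median on at least 3 arrays.

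Group means over all 30 arrays were fitted with limma 3.58.1 (lmFit and eBayes, R 4.3.3, two-sided), which shares 1 estimate of the spread (20 residual degrees of freedom). P-values were adjusted by Benjamini-Hochberg over all 12795 genes, and a gene is called at an adjusted p under 0.05. The fit was tested on simulated data. Genes were named by rule: the 15 largest rises and 15 largest falls among called genes whose groups do not overlap, up to 5 each way by adjusted p for each difference, 5 CAR and PXR genes (Nr1i3, Nr1i2, Cyp2b10, Cyp3a11, Cyp2c55), and list members. The 43 lists hold 764 memberships together with 4 lists added after values were seen, of which 632 were tested. The members and lists were chosen with earlier results of these data known. Alternatives varied the filter, normalization, probe set rule, variance model, array weights, a replicate block, the samples fitted, a 2-fold threshold and each array, and left out 4 arrays with skeletal muscle transcripts, none of them from hCAR/hPXR mice.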

Additional observations from a re-analysis of the deposited data

Results flagged for a closer look

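The response to cyproterone acetate differed by limma between hCAR/hPXR and wild type mice for 8 genes. The response was higher in hCAR/hPXR mice by 1.65 log2 units for Slc8a1, 1.87 for Gin1, 3.25 for Tcim and 1.82 for Ddit4. It was lower for Nebl (-3.06), Cyp2c55 (-4.46), Igfbp2 (-2.8) and Hsd17b6 (-4.43). The Ddit4 call was lost in 18 of 23 alternatives, the replicate block among them, Hsd17b6 in 13, Tcim in 9 and Igfbp2 in 8. Among probe sets with several genes or none in the annotation, which entered no comparison above, 3700 of 10092 passed the same filter on dim signals, and 97 were called for cyproterone acetate in hCAR/hPXR mice, 49 higher and 48 lower.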

How the results depend on the processing

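The count of 566 genes for cyproterone acetate in hCAR/hPXR mice was 1021 with array weights and 288 with a 2-fold threshold added, and 257 to 562 with 1 of the 6 arrays left out. The 8 genes that responded differently from wild type were 43 with array weights and 5 with probe sets averaged per gene, and 1 to 10 with an array left out. The 0 genes against CARko/PXRko were 172 with array weights, 1 with probe sets averaged and 1 without the arrays that hold muscle transcripts, and 0 to 4 with an array left out. The 1191 genes that differed from DCB were 65 with only those groups fitted and 336 with the 2-fold threshold, and 640 to 1598 with an array left out. The cause of these shifts was not tested beyond the stricter threshold itself. All other alternatives kept these counts within 1.5 times. None of the 30 largest changes reversed in any alternative; 14 of the 15 rises and 12 of the 15 falls were called with only the groups compared, where Rnase2a, Cib3, Cxcl9 and Enho were not. Among 22 further probe sets of 11 of the 30 genes, 16 lay above the array median in a group, and all 16 moved in the same direction. As a replicate block, the labels' numbers gave 549, 8, 0 and 1239 genes for the 4 comparisons, with 7 of the 8 kept and Ddit4 lost (adjusted p = 0.0633). After group means were removed, corn oil hCAR/hPXR replicates 1, 2 and 3 correlated with the same-numbered CPA array at 0.10, 0.077 and 0.39. Their highest correlations with a CPA array of another number were 0.066, 0.26 and -0.12. So few values of mixed order cannot decide whether the numbers mark a pairing. Probe sets near 4 to 5 log2 units lie at or below the array medians of 5.36 to 5.44. There, signal over background limits the size of a fold. In hCAR/hPXR mice, examples are Sult1e1, Myom3 and Slc8a1 with corn oil, and Nebl with corn oil or CPA.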
